A study of Macaca mulatta with 81 samples.

Results

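PHLDA3, BAX, BBC3, CDKN1A, MDM2, ZMAT3 and TP53INP1 are genes that the transcription factor p53 switches on. They are 7 of the 14133 genes that the array's gene table names, and they were followed in blood T cells of rhesus macaques after hematopoietic cell transplant. For each gene, the probe sets (groups of probes for one transcript) mapped to that gene alone were taken, 13 in all, and the one with the highest mean over all 81 arrays was used. All 7 passed the filter on low signal. TP53INP1 lay above the filter level of 4.65 in 37 of the 81 arrays, the other 6 genes in all 81.

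CD3 T cells were sorted from blood. Healthy controls without a transplant gave 34 arrays (Healthy.Control), and 27 transplanted animals gave 47. Of these animals, 11 gave both a healthy array and a transplant array, so that the 2 sets are not wholly separate animals. Autologous recipients, which got their own cells back and no prophylaxis, were sampled on day 14 (Auto.D14, n = 3) and day 36 (Auto.D36, n = 3). All other recipients had an allogeneic graft and were grouped by their prophylaxis, the treatment meant to prevent graft-versus-host disease. NoRx.F (n = 4) had none. Siro.F (n = 4) had Siro, taken here to be sirolimus. Tac.Mtx, taken to be tacrolimus with methotrexate, was sampled at D14 (n = 3), D30 (n = 2) and F (n = 3). Bela, taken to be belatacept, was sampled at F (n = 3), and Bela with Siro at D14 (n = 3), D30 (n = 3) and F (n = 2). FR104, a fragment of an antibody to CD28, was sampled at D14 (n = 3) and F (n = 3), and FR104 with Siro at D14 (n = 4) and F (n = 4). F stands for a final sample with no day given. In FR104.Siro.D14, 2 arrays were taken on day 14, 1 on day 22 (animal 29) and 1 on day 34 (animal 27). The labels give no conditioning (the radiation or drugs before a graft), no animal age and no severity of disease, so levels cannot be tied to a dose here. The day 14 group of a regimen and its later groups came from the same animals.

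p53 is held at a low level in resting cells by MDM2, which marks it for destruction and is itself a p53 target, so that the pathway limits itself. After DNA damage the kinases ATM and CHEK2 and their relatives stabilise p53, which then raises genes that stop the cell cycle, repair DNA or start cell death. Lymphocytes are among the cells most prone to p53-dependent death after irradiation, and BBC3 (also called PUMA) and BAX are central to it. In a sorted population, fewer cells of one type and less RNA per cell cannot be told apart.

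Levels below are log2 probe set signals, on which a difference of 1 is a 2-fold change. Means are given ± SD over arrays and differences ± SE from limma, fitted to all arrays with batch as a term. A gene was called at a Benjamini-Hochberg adjusted p under 0.05 over the 11807 genes tested. The spike-in controls, RNA added in the laboratory, read above the highest healthy array in 8 arrays. These were the 4 arrays of FR104.Siro.D14 and those of animal 202 in Auto.D14, animal 23 in FR104.D14, animal 29 in FR104.Siro.F and animal 38 in Bela.Siro.F. Values without these arrays are given where a call turns on them. The 3' minus 5' signal of actin, a measure of RNA quality, was 0.43 to 3.83 in healthy arrays. It was lower than in any healthy array in all of Auto.D36 (-0.34 to -0.30) and FR104.D14 (0.02 to 0.37), and reached below that range in Auto.D14 (0.29 to 2.26), FR104.F (0.09 to 0.43), FR104.Siro.D14 (0.23 to 2.15) and FR104.Siro.F (0.06 to 1.21). The part of either measure in the results was not tested. Of 10 T cell markers listed, 4 were named on the array, and CD5, TRAT1, CD6 and ZAP70 were above the filter level in all 81 arrays. Their levels were not constant: ZAP70 was lower at day 14 than in healthy controls by limma (-0.16 ± 0.06, adjusted p = 0.0414), and in the later groups pooled CD5 and ZAP70 were lower (-0.32 and -0.22, adjusted p = 0.00714 and 0.00138) and CD6 was higher (0.37, 0.0435). The mean of the 4 relative to healthy controls ran from -0.32 to 0.32 in healthy arrays, and the group means of NoRx.F (-0.565) and Siro.F (-0.393) lay below that range. Its part in the results was not tested.

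Pooled over the day 14 groups, some of the members were higher than in healthy controls. Below, PHLDA3, BAX and BBC3 are called the death genes. Over the 5 regimens with a day 14 group, PHLDA3, BAX, BBC3 and ZMAT3 were higher than in healthy controls, 4 of 7 members against 8.89% of all genes called higher. The differences were 0.70 ± 0.08 for PHLDA3, 0.95 ± 0.10 for BAX, 0.70 ± 0.11 for BBC3 and 0.96 ± 0.13 for ZMAT3, which is 1.63-, 1.94-, 1.63- and 1.95-fold (limma adjusted p = 2.82e-10, 1.47e-10, 8.06e-06 and 2.28e-07). By p, BAX ranked 1 and PHLDA3 ranked 7 among the 11807 genes. CDKN1A differed by 0.34 ± 0.13 (limma adjusted p = 0.0681), MDM2 by 0.26 ± 0.11 (0.104) and TP53INP1 by 0.08 ± 0.09 (0.573), and none of these passed. The median over the 7 members was 0.70 and over all genes 0.02.

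PHLDA3 encodes a small protein that blocks the survival kinase AKT at the membrane. Healthy arrays ran from 6.38 through a median of 6.79 to 7.13. At day 14 the autologous animals read 7.41, 7.47 and 7.52, and Tac.Mtx.D14 read 7.18, 7.47 and 7.62. Bela.Siro.D14 read 6.89, 7.07 and 7.70, of which only animal 38 lay above the healthy range. FR104.D14 read 7.08, 7.23 and 7.26. FR104.Siro.D14 was the highest of the 16 groups at 7.66, 7.93, 8.13 and 8.65, and its lowest array lay above all but 1 array of the other day 14 groups. Of the 16 arrays of the day 14 groups, 13 exceeded every healthy array, against 5 of the 20 later arrays of the same regimens. The 13 include the FR104.Siro.D14 arrays of day 22 (animal 29, 8.65) and day 34 (animal 27, 7.93).

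BAX, which opens pores in the mitochondrial membrane, ran from 8.88 through 9.32 to 9.80 in healthy animals. Tac.Mtx.D14 read 10.46, 10.59 and 10.77, and FR104.Siro.D14 10.20, 10.25, 10.77 and 11.22. Both groups lay wholly above the healthy range, as did Auto.D14 at 10.12, 10.22 and 10.33. Bela.Siro.D14 spread widely, with 9.68, 9.98 and 10.96, and FR104.D14 was low at 9.58, 9.79 and 9.96. One later group was as high: NoRx.F, at 10.05 to 10.46, differed from healthy controls by 0.98 ± 0.16 (limma adjusted p = 5.9e-07). In that group PHLDA3 and BBC3 did not pass, at 0.14 ± 0.12 (adjusted p = 0.417) and 0.05 ± 0.19 (0.87). All 3 named BAX probe sets gave the same direction in the pooled day 14 comparison, at 0.77, 0.78 and 0.95.

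BBC3 encodes a BH3-only protein that frees BAX to act. Its healthy arrays ran from 7.98 through 8.39 to 8.79. Tac.Mtx.D14 read 8.71, 9.62 and 10.05, and FR104.Siro.D14 9.01, 9.01, 9.71 and 10.14. Auto.D14 read 8.82, 8.99 and 9.03, all above the healthy range, yet its difference of 0.58 ± 0.22 did not pass (limma adjusted p = 0.118). Bela.Siro.D14 read 8.36, 8.78 and 9.62 and FR104.D14 8.40, 8.47 and 8.81, both overlapping the healthy range. No later group mean exceeded 8.67, which was that of Bela.Siro.D30. Over the later groups pooled, BBC3 differed from healthy controls by 0.04 ± 0.11 (95% interval -0.18 to 0.26, limma adjusted p = 0.855).

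**Figure D1:**
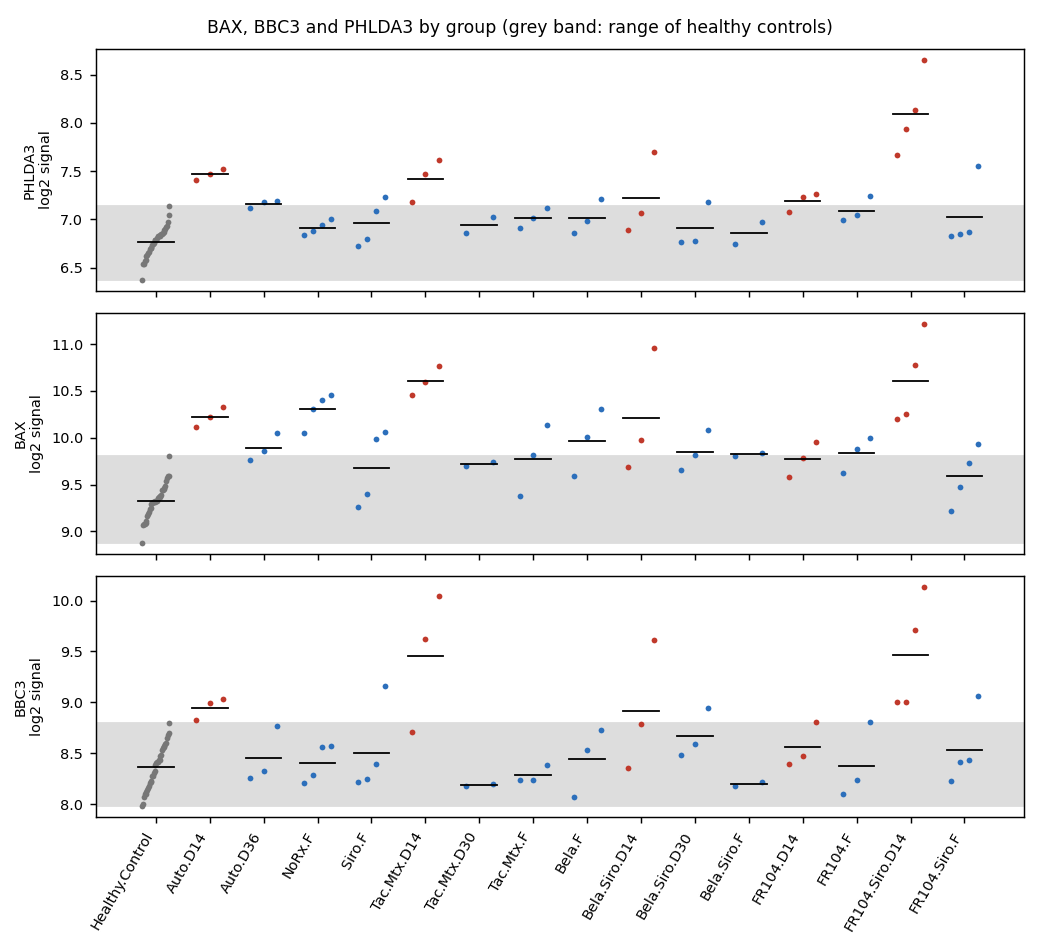
Log2 signal of PHLDA3, BAX and BBC3 in each of the 81 arrays, by group (red: day 14 groups, blue: later groups, grey: healthy controls), with the group mean as a bar and the healthy range as a grey band. The 4 FR104.Siro.D14 arrays lie above the band for all 3 genes, and NoRx.F lies above it for BAX only.

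Within the later groups pooled over the same regimens, 4 of 7 members were higher than in healthy controls, against 14.2% of all genes called higher. They were not the same 4 as at day 14, with MDM2 in place of BBC3. PHLDA3 differed by 0.25 ± 0.07 (limma adjusted p = 0.00571), BAX by 0.45 ± 0.09 (0.000142), MDM2 by 0.40 ± 0.11 (0.0034) and ZMAT3 by 0.80 ± 0.13 (1.24e-06). In batch 3 alone the PHLDA3 difference was 0.16 (adjusted p = 0.236) and in batch 4 alone 0.31 (0.0826), neither called. MDM2 was 0.69 higher in batch 4 alone (adjusted p = 0.00426), but -0.03 in batch 3 alone (0.925), and without the arrays of high spike-in signal it was 0.26 and did not pass (0.0854). That last setting leaves FR104.Siro out of the pool, since all FR104.Siro.D14 arrays had high spike-in signal.

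From day 14 to the later samples PHLDA3, BBC3 and BAX fell. PHLDA3 and BBC3 ranked 1 and 2 of the 11807 genes by p and BAX ranked 7. Pooled over the 5 regimens, later minus day 14 was -0.45 ± 0.07 for PHLDA3, -0.66 ± 0.11 for BBC3 and -0.51 ± 0.09 for BAX (limma adjusted p = 0.000215, 0.000215 and 0.000797). That is 3 of 7 members, against 0.720% of all genes called lower. BBC3 had the second most negative difference of all genes tested (place 11806 from the top). CDKN1A at -0.17 ± 0.12, ZMAT3 at -0.16 ± 0.12, TP53INP1 at -0.13 ± 0.09 and MDM2 at 0.14 ± 0.11 did not pass (adjusted p = 0.437, 0.458, 0.412 and 0.464). The 95% interval for ZMAT3 ran from -0.41 to 0.08 and that for MDM2 from -0.07 to 0.35.

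Followed animal by animal, PHLDA3 was lower later in 16 of 16 animals, with changes from -0.02 to -1.28 and a mean of -0.49 ± 0.40 (SD). An exact 2-sided sign-flip permutation test over animals gave p = 3.05e-05, the smallest it can give with n = 16. Over all 11807 genes, 4 (0.0339%) were lower in every animal. BAX was lower in 15 of 16 animals (mean -0.53 ± 0.53 SD, exact permutation p = 0.00119), the exception being FR104 animal 24, which was higher later by 0.42. BBC3 was also lower in 15 of 16 (mean -0.66 ± 0.60 SD, exact permutation p = 0.000641), the exception being Bela.Siro animal 49, which went from 8.36 to 8.94. For the other members the counts lower were 11 for CDKN1A (exact permutation p = 0.211), 7 for MDM2 (0.33), 9 for ZMAT3 (0.205) and 10 for TP53INP1 (0.138). These 7 p-values are unadjusted.

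The size of the fall differed in value among regimens. In FR104.Siro, PHLDA3 went from 8.13 to 6.85 in animal 26, from 8.65 to 7.55 in animal 29, from 7.66 to 6.83 in animal 28 and from 7.93 to 6.87 in animal 27. In FR104 without Siro it went from 7.08 to 7.04, from 7.26 to 7.24 and from 7.23 to 6.99. In Auto it went from 7.52 to 7.19, from 7.47 to 7.12 and from 7.41 to 7.18. The FR104.Siro animals thus changed by -0.84 to -1.28, and the FR104 animals by -0.02 to -0.24. The F test of a difference among the 5 regimens gave a limma adjusted p of 0.249 for PHLDA3, 0.415 for BAX and 0.692 for BBC3, and called 3 of 11807 genes, none a member (unadjusted p = 0.000431, 0.00244 and 0.0247).

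Taken one regimen at a time, members passed in FR104.Siro, but few or no genes were called lower in the others: 14 in Auto and 0 in Tac.Mtx, Bela.Siro and FR104 by limma (in FR104, 341 genes differed at an unadjusted p under 0.05, and in Bela.Siro 258 at D30 and 365 at F). FR104.Siro.F against FR104.Siro.D14 gave -1.07 ± 0.15 for PHLDA3, -1.02 ± 0.19 for BAX and -0.93 ± 0.22 for BBC3 (limma adjusted p = 5.34e-06, 0.00186 and 0.0127), 3 of 7 members against 1.42% of genes called lower. With the 2 arrays of day 22 and day 34 left out, PHLDA3 still passed, while BAX at -0.90 (adjusted p = 0.0709) and BBC3 at -0.83 (0.174) did not. The BBC3 call was also lost without the day 14 group's array of animal 29 or the final array of animal 26 or 27. Fitted on the 8 arrays of both groups only, none of the 3 passed (adjusted p = 0.204, 0.21 and 0.264). In the autologous animals no member was called lower at day 36, where 0.119% of genes were. In value, PHLDA3, BAX and BBC3 were each lower in 3 of 3 animals. The Auto.D36 differences were -0.30 ± 0.17 for PHLDA3, -0.33 ± 0.22 for BAX and -0.50 ± 0.26 for BBC3.

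In Tac.Mtx the BBC3 values were as large as in FR104.Siro, but no gene passed. BBC3 went from 9.62 on day 14 to 8.18 at D30 and 8.23 at F in animal 20, from 10.05 to 8.20 and 8.38 in animal 19, and from 8.71 to 8.23 at F in animal 21. The difference of F from D14 was -1.18 ± 0.26 (limma adjusted p = 0.219), and BBC3 ranked 1 by p. At an unadjusted p under 0.05, 516 genes and 5 of the 7 members differed in that comparison. With the animal as a random replicate block, the BBC3 differences of D30 and F from D14 passed, at -1.34 ± 0.26 (limma adjusted p = 0.033) and -1.18 ± 0.23 (0.0344).

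The pooled fall rests in part on FR104.Siro. Without that regimen, a setting added after the data were seen, BBC3 still passed at -0.60 ± 0.11 (limma adjusted p = 0.0159), while PHLDA3 at -0.29 ± 0.07 (0.0834) and BAX at -0.38 ± 0.10 (0.122) did not. Without the 8 arrays of high spike-in signal the values were -0.61 for BBC3 (adjusted p = 0.0464), -0.30 for PHLDA3 (0.223) and -0.37 for BAX (0.471). All FR104.Siro.D14 arrays are among these 8, so that FR104.Siro leaves the pool in this setting too. It is thus no separate check of array quality over the same regimens. Within batch 3, which holds Tac.Mtx and Bela.Siro, they were -0.85, -0.39 and -0.62 (0.0877, 0.827 and 0.19), and within batch 4, which holds the other 3 regimens, -0.54, -0.49 and -0.43 (0.113, 0.0805 and 0.116). The direction was the same in each. The rise at day 14 over healthy controls was called in both batches for PHLDA3, BAX, BBC3 and ZMAT3.

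**Figure D2:**
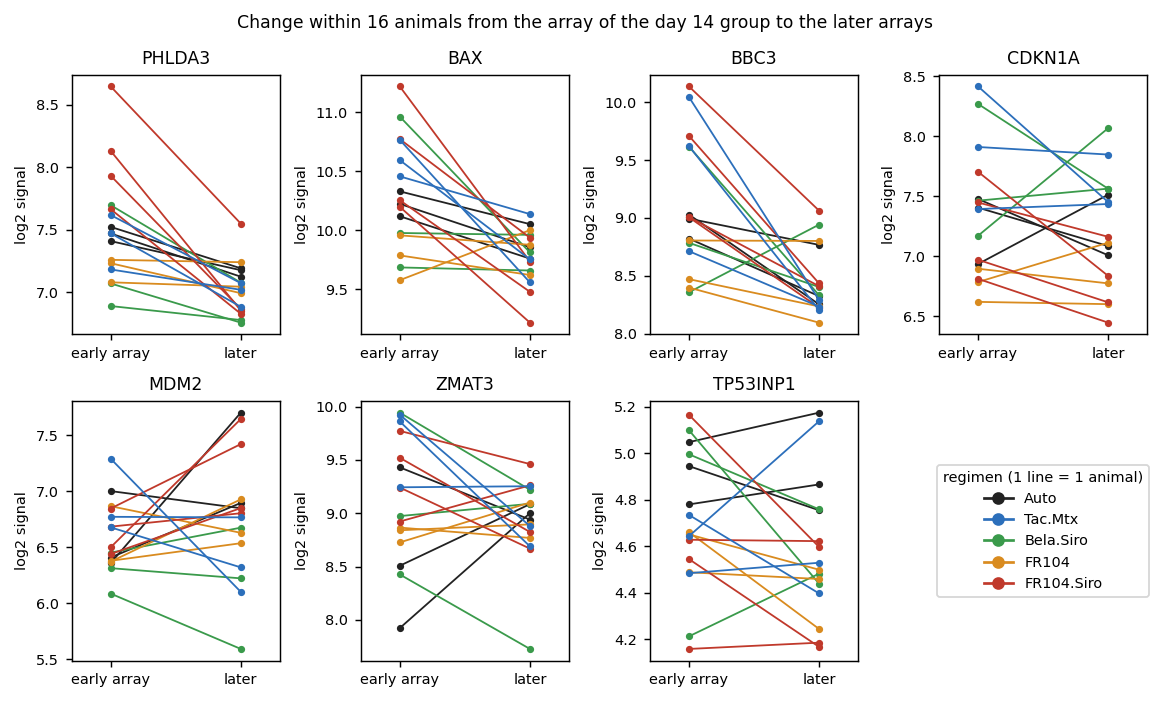
Log2 signal of each member in 16 animals, from the array of the day 14 group (left) to the mean of the animal's later arrays (right), with 1 line per animal coloured by regimen. Every PHLDA3 line falls, whereas MDM2 lines rise in 9 animals and fall in 7.

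Against their own healthy array, 6 animals could be followed to day 14 (3 Auto, and 1 each of Bela.Siro, FR104 and FR104.Siro). The FR104.Siro animal 28 had its healthy array in batch 3 and its day 14 array in batch 4, and these differences carry no batch term. In the FR104 animal 22 the 3' minus 5' signal of actin was 3.83 in the healthy array and 0.02 at day 14. PHLDA3 was higher in 6 of 6, by 0.06 to 0.69, and BAX in 6 of 6, by 0.31 to 0.79. MDM2 and ZMAT3 were higher in 6 of 6 as well, by 0.14 to 0.83 and by 0.26 to 1.26. For each of these the exact 2-sided permutation p was 0.0312, the smallest that n = 6 allows. BBC3 was higher in 5 of 6 (exact permutation p = 0.0625), and CDKN1A and TP53INP1 in 2 of 6 each (exact permutation p = 0.531 and 0.812).

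CDKN1A, the inhibitor of cyclin-dependent kinases known as p21, is the best known arrest gene of the pathway.  Healthy arrays ran from 6.15 through 6.99 to 7.83. Tac.Mtx.D14 read 7.39, 7.91 and 8.41, Tac.Mtx.F 7.22, 7.85 and 7.96, and Bela.F 7.55, 7.68 and 7.98. These 3 groups were the ones where CDKN1A passed, at 0.89 ± 0.23, 0.67 ± 0.23 and 0.73 ± 0.23 over healthy controls (limma adjusted p = 0.0272, 0.0419 and 0.0199). The calls in both Tac.Mtx groups were lost without animal 20 or 21, and that in Bela.F without animal 46 or 47. All arrays of FR104.D14, FR104.F, FR104.Siro.D14 and FR104.Siro.F stayed within the healthy range. The regimens of higher CDKN1A lie in batch 3 and those of FR104 in batch 4, so regimen and batch cannot be told apart between them. Against the healthy arrays of the same batch, the pooled day 14 difference was 0.76 in batch 3 (adjusted p = 0.0134) and 0.06 in batch 4 (0.895).

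MDM2, the ubiquitin ligase that marks p53 for degradation, was higher later in some animals and lower in others. Healthy arrays ran from 5.83 through 6.29 to 6.998. Auto.D36 read 6.85, 6.90 and 7.71, and FR104.Siro.F 6.81, 6.85, 7.42 and 7.65, the 2 groups in which MDM2 passed over healthy controls (0.83 ± 0.22 and 0.86 ± 0.20, limma adjusted p = 0.00509 and 0.00275). In FR104.Siro, MDM2 was higher later in all 4 animals, by 0.12 to 1.15, and in Tac.Mtx it was lower later in all 3, with changes of -0.005, -0.36 and -1.19. The F test over the regimens did not pass (limma adjusted p = 0.429). Of the 4 named MDM2 probe sets, another one (above the filter level in 69 of 81 arrays) gave 0.70 ± 0.14 at day 14 over healthy controls, called in a fit of 37220 probe sets (adjusted p = 0.000326), while the one used gave 0.26 ± 0.11 (0.131). The probe sets of this gene thus disagree on whether it was higher at day 14.

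ZMAT3, a zinc finger protein that binds RNA and shapes splicing, was higher than in healthy controls in the day 14 groups pooled and in the later groups pooled. Healthy arrays ran from 7.56 through 8.19 to 8.71. Tac.Mtx.D14 read 9.24, 9.86 and 9.92, FR104.Siro.D14 8.92, 9.24, 9.52 and 9.77, and FR104.D14 8.73, 8.84 and 8.87, all above the healthy range. Auto.D14 read 7.92, 8.51 and 9.43 and did not pass over healthy controls (0.48 ± 0.25, limma adjusted p = 0.305), while Auto.D36 did (0.87 ± 0.25, 0.0114). Bela.Siro.D14 read 8.43, 8.97 and 9.94. Later minus day 14 was 0.39 in Auto and -0.81 in Tac.Mtx. Of the later arrays of the 5 regimens with a day 14 group, 17 of 20 lay above the healthy range, against 13 of 16 at day 14. NoRx.F, at 7.82 to 8.52, and Siro.F, at 8.32 to 8.63, lay within it. The second named probe set of ZMAT3 gave 0.33 ± 0.11 at day 14 and 0.45 ± 0.10 later over healthy controls (limma adjusted p = 0.0394 and 0.000828), the same direction at a smaller size.

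TP53INP1, which helps p53 choose death over arrest, was above the filter level in 37 of 81 arrays. Its healthy arrays ran from 4.09 through 4.65 to 5.06. No transplant group passed, and the largest difference was 0.35 ± 0.15 in NoRx.F (limma adjusted p = 0.0581).

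**Figure D3:**
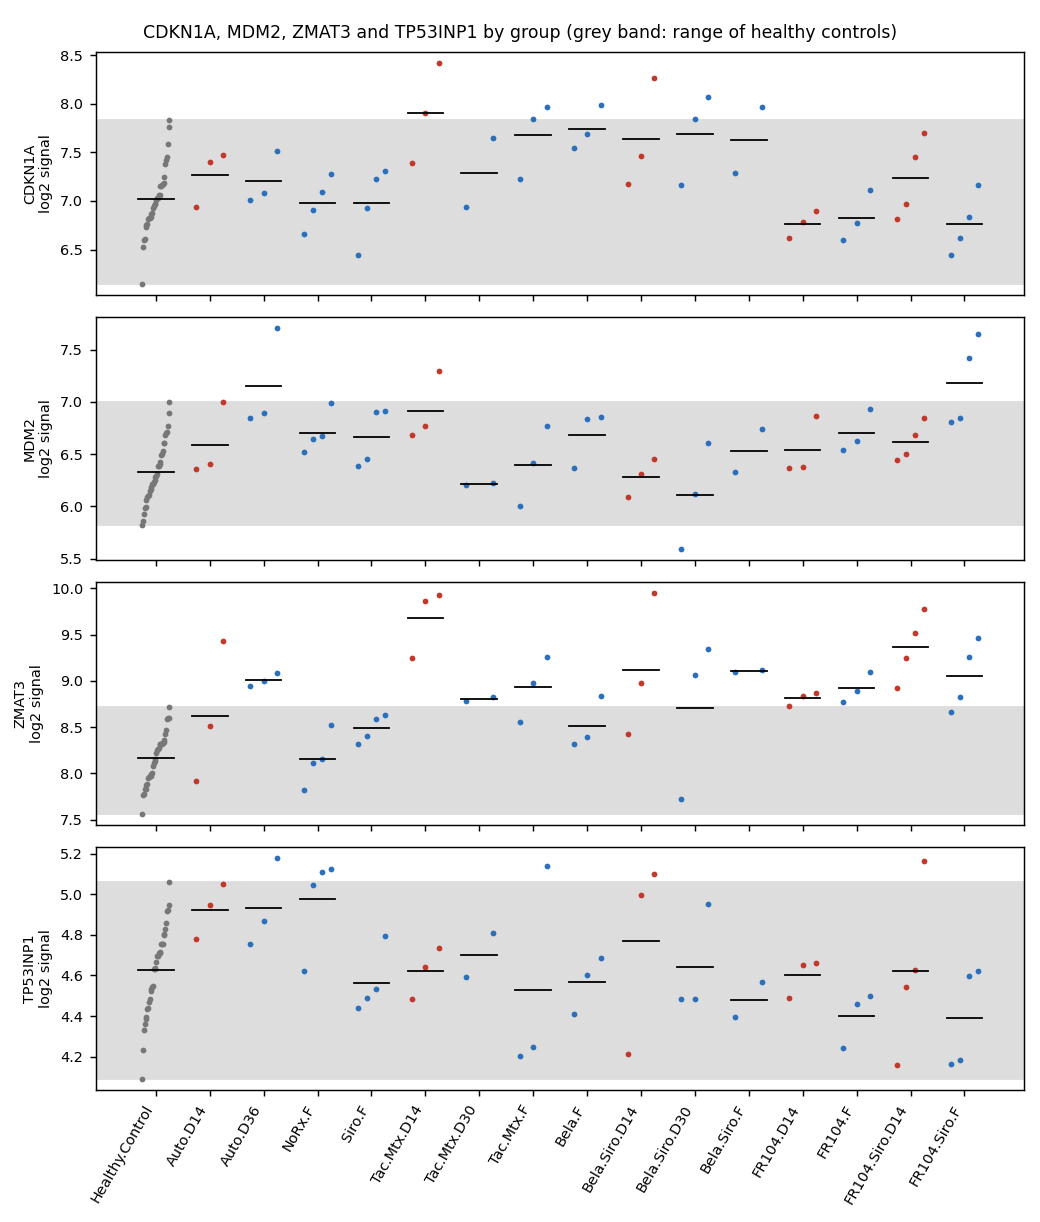
Log2 signal of CDKN1A, MDM2, ZMAT3 and TP53INP1 in each of the 81 arrays by group, drawn as for PHLDA3, BAX and BBC3. ZMAT3 lies above the grey healthy range in 17 of the 20 later arrays of the 5 regimens with a day 14 group. CDKN1A lies within its healthy range in all FR104 and FR104.Siro arrays.

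Group by group, the count of members called higher than in healthy controls was read against the share of all genes called higher. It was 5 of 7 in Tac.Mtx.D14 (all but MDM2 and TP53INP1), where 1.40% of genes were. In FR104.Siro.D14 it was 4 (PHLDA3, BAX, BBC3 and ZMAT3) against 8.52%, in Bela.Siro.D14 3 (PHLDA3, BAX and ZMAT3) against 1.99%, and in Auto.D14 2 (PHLDA3 and BAX) against 2.47%. FR104.D14 had none against 2.58%. There 3 members had an unadjusted p under 0.05, with limma differences of 0.41 ± 0.15 for PHLDA3 (adjusted p = 0.0863), 0.45 ± 0.19 for BAX (0.165) and 0.67 ± 0.25 for ZMAT3 (0.111). BAX ranked 1 of all genes by p in Tac.Mtx.D14, at 1.27 ± 0.17, and PHLDA3 ranked 2 in FR104.Siro.D14, at 1.31 ± 0.13.

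In the later groups the count was 0 to 3. Auto.D36 had 3 (BAX, MDM2 and ZMAT3) against 7.83% of genes. Tac.Mtx.F had 2 (CDKN1A and ZMAT3) against 10.7%, Bela.F 2 (BAX and CDKN1A) against 12.4%, and FR104.Siro.F 2 (MDM2 and ZMAT3) against 2.91%. NoRx.F had BAX alone against 20.0%, Bela.Siro.D30 BAX alone against 4.23%, Bela.Siro.F ZMAT3 alone against 1.87%, and FR104.F ZMAT3 alone against 5.39%. Siro.F had none against 8.26% and Tac.Mtx.D30 none against 2.85%, with 1 member each at an unadjusted p under 0.05. No member was called lower than in healthy controls in any of the 15 groups. The single calls in Bela.Siro.D30, Bela.Siro.F and FR104.F, and BAX in Auto.D36, were each lost when any 1 array of the group was left out. Leaving out animal 202 ended the PHLDA3 and BAX calls in Auto.D14, and leaving out animal 38 ended all 3 calls in Bela.Siro.D14 (animal 42 those of PHLDA3 and ZMAT3). With the animal as a random replicate block PHLDA3 was called in Auto.D36 at 0.38 (limma adjusted p = 0.0333) and in FR104.D14 at 0.43 (0.0405), while CDKN1A in Tac.Mtx.F (0.0511), BAX in Bela.Siro.D30 (0.0552) and ZMAT3 in Bela.Siro.F (0.0929) were not. In Auto.D36 the MDM2 and ZMAT3 calls were lost without animal 201, in Bela.F the BAX call without animal 47, and in Tac.Mtx.F the ZMAT3 call without animal 20 or 21.

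**Figure D4:**
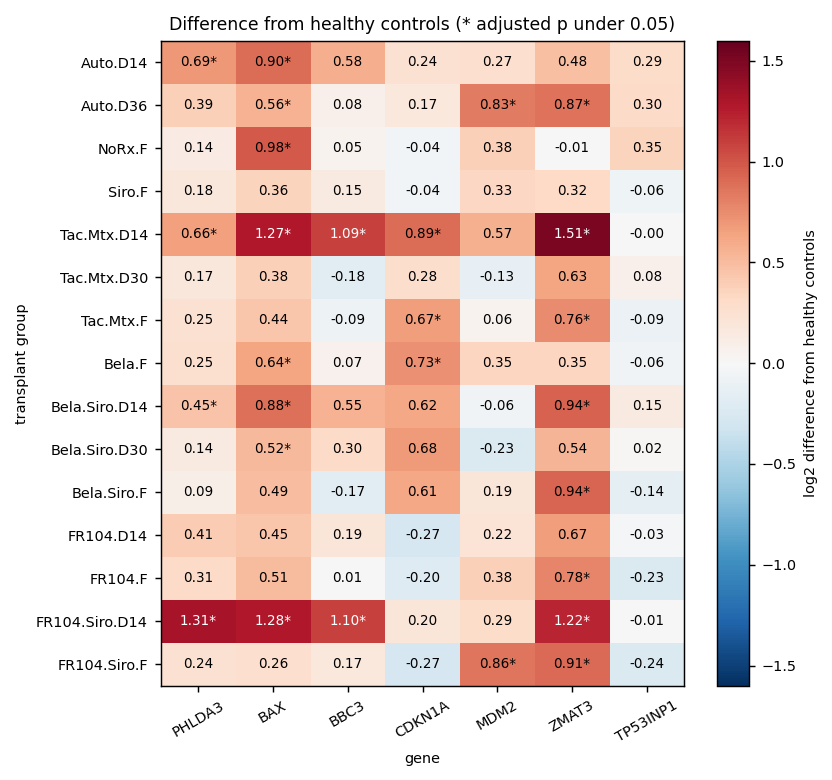
Log2 difference of each member from healthy controls in the 15 transplant groups, as fitted values with colour by size and an asterisk at a limma adjusted p under 0.05. The day 14 groups of Tac.Mtx and FR104.Siro hold the most asterisks, with 5 and 4.

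Among the day 14 groups, FR104.Siro.D14 exceeded Auto.D14 in PHLDA3 by 0.63 ± 0.16 (limma adjusted p = 0.00501), 1 of 7 members against 5.51% of genes called higher. ZMAT3 at 0.74 ± 0.27 (adjusted p = 0.0523) and BBC3 at 0.52 ± 0.24 (0.128) did not pass. The PHLDA3 call was lost without animal 29, sampled on day 22 (0.44), and with the 2 true day 14 arrays alone (0.43, adjusted p = 0.129). The other 3 allogeneic day 14 groups had no member called against Auto.D14, where 1 of the 11807 genes was called higher in Tac.Mtx.D14, 6 in Bela.Siro.D14 and 14 in FR104.D14, with at most 1 member at an unadjusted p under 0.05.

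At day 14 only a few members of the wider pathway were called. Lists of other p53 targets were drawn up by role, and 31 such genes were tested. Their counts stand beside 8.89% of all genes called higher and 8.40% called lower at day 14. In the repair and metabolism list 3 of 14 rose at day 14 over healthy controls: DDB2, which recognises ultraviolet damage, by 0.82 ± 0.10, TIGAR, which diverts sugar from glycolysis, by 0.62 ± 0.15, and POLH, a polymerase that copies past lesions, by 0.32 ± 0.08 (limma adjusted p = 4.16e-09, 0.00188 and 0.0037). The list's median was 0.06, near the 0.02 of all genes. In the other apoptosis targets 1 of 9 rose, the receptor EDA2R at 0.37 ± 0.10 (adjusted p = 0.00371), with a median of 0.03. Among the arrest targets 1 of 8 rose (CCNG1, 0.20 ± 0.06, 0.0192) and 1 fell, the growth-arrest gene BTG2 (-0.76 ± 0.16, 0.000492). Other targets did not pass at day 14, such as FAS at 0.32 ± 0.16 (0.161), PMAIP1 at -0.47 ± 0.24 (0.158) and FDXR at 0.07 ± 0.08 (0.541). In the later groups pooled, FAS (0.61), GADD45A (0.31) and TRIM22 (0.44) were higher than in healthy controls (limma adjusted p = 0.00171, 0.00809 and 0.0403). SESN1 (-0.87), BTG2 (-0.60) and PLK3 (-0.29) were lower there (1.45e-05, 0.00196 and 0.04). Of all genes, 14.2% were called higher and 13.6% lower in that comparison. Later values of DDB2 and TIGAR follow below.

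DDB2 was higher at day 14 and fell later, as PHLDA3, BAX and BBC3 did. Its healthy arrays ran from 7.73 through 8.17 to 8.62, with group means of 8.89 in Auto.D14, 9.34 in Tac.Mtx.D14 and 9.38 in FR104.Siro.D14. From day 14 to later it fell by 0.48 ± 0.09 (limma adjusted p = 0.00134) and was lower in 15 of 16 animals. In the later groups pooled DDB2 was still higher than in healthy controls, by 0.34 ± 0.09 (adjusted p = 0.00395), whereas BBC3 was not. POLH fell by 0.27 ± 0.08 (adjusted p = 0.0449), also in 15 of 16. Of the 31 other targets these 2 fell and none rose, where 0.720% of all genes fell and 1.37% rose. TIGAR stayed higher later (0.75 ± 0.14 over healthy controls, adjusted p = 2.78e-05).

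Upstream of p53, CHEK1, a kinase of the replication checkpoint, was higher at day 14 by 0.79 ± 0.18 and later by 1.19 ± 0.17 over healthy controls (limma adjusted p = 0.00106 and 1.64e-07). CHEK2, the kinase that acts below ATM, differed by 0.08 ± 0.10 (0.61), and MDM4, the partner of MDM2, by -0.16 ± 0.15 (0.505). CDKN2A, whose ARF product restrains MDM2, rose from day 14 to later by 0.82 ± 0.21 (adjusted p = 0.0244). RCHY1, another ligase for p53, was lower at day 14 (-0.29 ± 0.10, limma adjusted p = 0.0268). Of 8 pathway kinases and regulators tested, 2 rose and 1 fell at day 14, against 8.89% and 8.40% of all genes. ATM and PPM1D were not analysed here.

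In the rest of the BCL2 family, 4 of 8 tested genes rose at day 14 and none fell, against the same 8.89% and 8.40%. They were the killers BCL2L11 (BIM) at 0.47 ± 0.13, BIK at 0.51 ± 0.17 and BAK1 at 0.32 ± 0.10, and the guardian BCL2 at 0.35 ± 0.11 (limma adjusted p = 0.00708, 0.0259, 0.0167 and 0.0163). The same 4 were higher later too, at 0.56, 0.69, 0.48 and 0.40 (adjusted p = 0.000289, 0.000548, 6.16e-05 and 0.00203). None of the 8 passed between day 14 and later, where BAX and BBC3 fell.

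Proliferation genes had another order across groups than PHLDA3, BAX and BBC3. Of 13 cell cycle genes tested, 11 rose at day 14 (median 0.78) and 13 later (median 1.08), against 8.89% and 14.2% of all genes called higher. Among them was MKI67 at 0.88 ± 0.19 and 1.44 ± 0.19 (limma adjusted p = 0.000743 and 1.59e-08). The mean level of the 13 relative to healthy controls was highest in NoRx.F at 2.56, where 13 of 13 rose, against 20.0% of all genes. In FR104.Siro.D14 it was -0.17 (arrays from -0.59 to 0.15), the one day 14 group with a mean below the healthy mean. None of the 13 passed there, against 8.52% of all genes called higher and 9.68% called lower. Over the 16 group means, the correlation of the cell cycle level with PHLDA3 was -0.35, with BBC3 -0.43 and with BAX 0.02. These are descriptions over groups that share batches, regimens and animals.

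**Figure D5:**
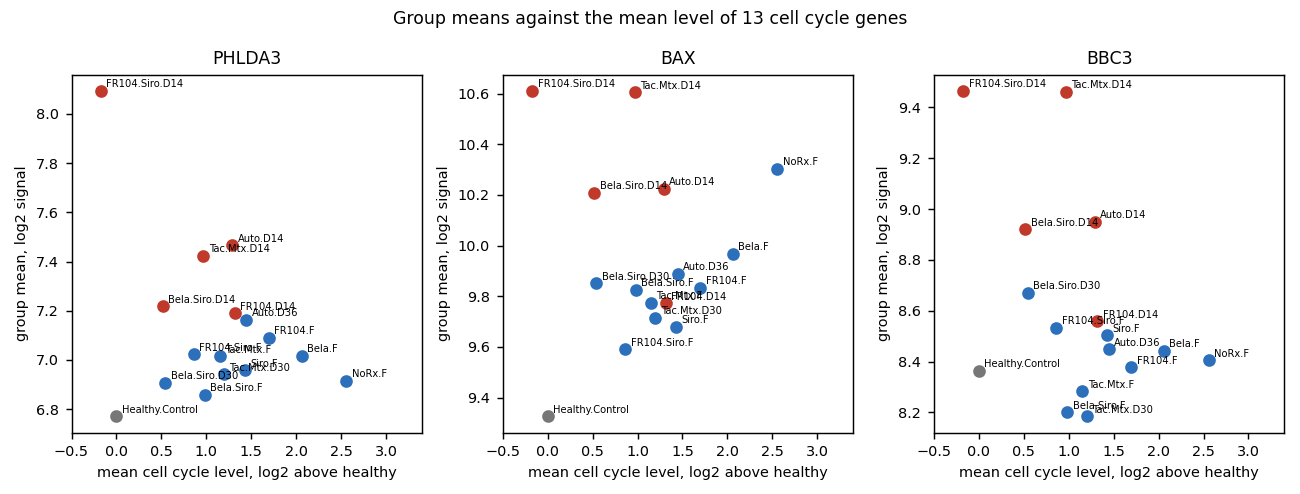
Group mean log2 signal of PHLDA3, BAX and BBC3 against the mean level of 13 cell cycle genes relative to healthy controls, with 1 point per group (red: day 14, blue: later, grey: healthy). FR104.Siro.D14 combines the highest PHLDA3 with a cell cycle level of -0.17, and NoRx.F the highest cell cycle level, 2.56, with a PHLDA3 mean of 6.91.

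Across the 16 group means, the correlation of BBC3 with PHLDA3 was 0.84 and with BAX 0.80, and that of PHLDA3 with BAX 0.76. Over the 34 healthy arrays the same pairs gave 0.27 each. These too are descriptions. Over the groups, the correlation of ZMAT3 was 0.577 with PHLDA3, 0.575 with BBC3 and 0.493 with BAX. For CDKN1A, MDM2 and TP53INP1 it was 0.07, 0.21 and 0.15 with PHLDA3, and 0.39, 0.16 and 0.39 with BAX. The genes most like the mean of the 7 members over the 16 groups, by Pearson's r, were DDB2 (0.90), RHCE (0.81), POLH (0.79), EPB42 (0.75), ATF3 (0.73), CLIC2 (0.72), EDA2R (0.71), CPT1C (0.71), C2H3orf18 (0.71) and ABCC6 (0.71). RHCE and EPB42 encode proteins of the red cell membrane, and ATF3 is a stress-induced transcription factor. DDB2 was the most like PHLDA3 (0.85), BAX (0.90) and BBC3 (0.92) singly. The gene most like CDKN1A was RPS27L (0.93), most like MDM2 ADD2 (0.79), most like ZMAT3 C2H3orf18 (0.80), and most like TP53INP1 PTGES3 (0.91).

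Markers of other blood cells also moved after transplant. Of 10 monocyte and neutrophil markers, 3 rose at day 14 over healthy controls (median 0.51), S100A8 by 3.13 ± 0.49, S100A9 by 3.61 ± 0.52 and FCN1 by 1.14 ± 0.40 (limma adjusted p = 3.98e-06, 5.22e-07 and 0.0366). Their mean level ran from -1.06 to 1.62 in healthy arrays, and the group means from 0.19 in Auto.D14 to 1.88 in Bela.Siro.D14 at day 14. The mean level was 0.44 in FR104.Siro.D14 and 1.05 in FR104.Siro.F, and 1.46, 0.32 and 1.11 in Tac.Mtx at D14, D30 and F. From day 14 to later none of the 10 passed (median 0.00), against 1.37% of all genes called higher and 0.720% called lower. Among NK cell markers 2 of 5 fell at day 14 and among B and plasma cell markers 3 of 7 fell and 1 rose, and of 8 erythroid and platelet markers none passed. All these day 14 counts stand beside 8.89% of all genes called higher and 8.40% called lower. The part of these other cells in the rise of the members over healthy controls, or in the fall from day 14 to later, was not tested.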

How the data were processed

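The authors deposited log2 signals per probe set, made with RMA in affy per the submitters' processing notes, with versions and annotation not given in the sources used here. The 4 batches were nearly equal among healthy controls (F test p over 0.95 in 61.02% of the 52865 probe sets). In unadjusted data with no difference between batches, 5% would be expected. A batch adjustment thus preceded deposit, and spreads may be understated. The gene table gave 24969 probe sets 1 gene, 361 several and 27535 none. The 11807 genes tested exceeded 4.65, the 40th percentile of the whole table, in 2 or more arrays.

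limma 3.58.1 in R 4.3.3 was fitted to all 81 arrays with group and batch (62 residual degrees of freedom, eBayes with a trend), and adjusted p by Benjamini-Hochberg within each of 33 comparisons. Pooled values weight the 5 regimens equally. Comparisons that share healthy controls, day 14 arrays or animals are not independent. The number of arrays limits the precision. Within animals, exact sign-flip tests used the mean of an animal's later arrays. The labels' animal numbers pair arrays: after group means were removed, 20 of 20 day 14 and later pairs of 1 animal correlated (0.08 to 0.66), each highest with its own animal.

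The members and lists were chosen with earlier results of these data known. All 7 members are named throughout; of each list up to 4 called genes with the smallest adjusted p in the pooled comparisons, and MDM4, CHEK1, CHEK2 and MKI67; for likeness the top 10 over the member mean, with LOC symbols passed over. Other list genes named as not passing were picked after their values were seen. The fit was tested on simulated data. Alternatives are in the closing section.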

Additional observations from a re-analysis of the deposited data

Results flagged for a closer look

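In FR104.Siro.F, animal 29 stood apart from the other 3 in PHLDA3, at 7.55 against 6.83 to 6.87. It was also the highest of the FR104.Siro.D14 arrays and 1 of the 8 arrays of high spike-in signal. In NoRx.F, animal 52 was low in TP53INP1, at 4.62 against a group median of 5.08. Chance flags about 1 in 20 of such groups of 4 arrays.

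PHLDA3 differed between day 14 groups: FR104.Siro.D14 exceeded Auto.D14 by 0.63 on the log2 scale, the call that was lost without animal 29. MDM2 changed in opposite directions from day 14 to later, higher in all 4 FR104.Siro animals and lower in all 3 Tac.Mtx animals, with a gap of 1.08 between the mean changes. The difference between these 2 regimens was not tested by itself.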

How the results depend on the processing

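The number of members higher at day 14 over healthy controls (4) was 4 to 6 under every alternative run, and the number higher later (4) was 3 or 4. The number lower from day 14 to later (3) was 3 except in batch 3 alone, in batch 4 alone and with within-animal differences as first fitted (0 each), and without the arrays of high spike-in signal or without the FR104.Siro regimen (1 each, BBC3). The setting without the arrays of high spike-in signal also leaves FR104.Siro out of the pool, as all FR104.Siro.D14 arrays are among them. With the animal as a random replicate block (correlation of the deviations estimated over all genes), 742 genes were called from day 14 to later in place of 247, and the members' pooled calls did not change. Within-animal differences as a replicate block were first fitted with the variance trend on the mean difference, which called 0 members and 0 genes (2311 genes and 2 members at an unadjusted p under 0.05 in limma), with PHLDA3 at -0.45 ± 0.13 (adjusted p = 0.118), BAX at -0.50 ± 0.18 (0.16) and BBC3 at -0.64 ± 0.35 (0.318). After that result was seen, the trend was put on the mean signal, which called 3 members and 355 genes, and then left out, which called 3 and 341. The calls within animals thus depend on this setting.

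Genes called from day 14 to later numbered 380 with the mean of a gene's probe sets, 371 after quantile normalization again, 26 with only the groups compared, 163 with only day 14 arrays in FR104.Siro.D14, 2 without the arrays of high spike-in signal, 4 without FR104.Siro, 2 in batch 3 alone and 0 in batch 4 alone (2005 at an unadjusted p under 0.05 in limma). Against healthy controls, day 14 calls numbered 3756 without the batch term, 380 in batch 3 alone, 557 in batch 4 alone and 1337 without the arrays of high spike-in signal, and later calls 1709 in batch 4 alone. MDM2 later over healthy controls turned to -0.027 in batch 3 alone. Leaving out 1 array at a time gave 54 (without animal 22 of FR104.F) to 587 genes (without animal 200 of Auto.D14) from day 14 to later, with 3 members lower each time. The count also moved by over 1.5 times without animal 202 of Auto.D14, 200 or 201 of Auto.D36, 42 of Bela.Siro.D14, 38 of Bela.Siro.F, 23 of FR104.D14, 29 of FR104.Siro.D14, 27 or 29 of FR104.Siro.F, and 19 or 21 of Tac.Mtx.D14. Over healthy controls, leaving out 1 array gave 1621 to 2299 genes and 4 or 5 members at day 14.

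Each member in each comparison under each alternative, with each array left out as an alternative, was counted as 1 case. Of these cases 74 lost a call, 50 gained one and 1 reversed in sign. The other 3550 were unchanged, which includes cases called in neither fit, so they do not measure how many calls held. The causes were not tested. TP53INP1 was under the filter level in most arrays.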
